A study of Mus musculus with 59 samples.

Results

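The p53 targets and the genes of apoptosis and necroptosis described here are 40 genes chosen by name from a table of 24421 genes measured in cloned mouse embryos, and all 40 were present in the table. They were divided by role into 6 groups: p53 and its inhibitors (3 genes), p53 targets (13), the Bcl2 family (11), caspases and the apoptosome (5), inhibitor of apoptosis proteins with their antagonist (3), and death receptor and necroptosis genes (5). The embryos were clones from somatic cell nuclear transfer (SCNT): an oocyte whose own nucleus had been removed received a donor nucleus, per the labels from a cumulus cell, and was then activated. All groups carry the strain label BDF1, and the labels' protocol names female C57BL/6n mice of 5 to 7 weeks as oocyte donors. Counted from activation, untreated 1-cell clones were collected at 13 to 14 h, early 2-cell clones at 20 to 21 h and late 2-cell clones at 33 to 34 h. The last group holds late 2-cell clones of the same hours that had received trichostatin A (TSA), which blocks histone deacetylases. The labels list 5 libraries of poly(A) RNA in each group. The sources used here give no dose or duration of TSA. The 4 groups have no fertilized embryos beside them, and the labels name no allele or transgene in any of them.

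p53, the product of Trp53, is a transcription factor that accumulates after DNA damage and other stresses and activates genes of cell cycle arrest, repair and cell death. Mdm2 and Mdm4 bind and restrain it, and Mdm2 is itself one of its targets. In the mitochondrial pathway, anti-apoptotic Bcl2 proteins hold Bax and Bak1 in check, BH3-only proteins relieve that hold, and released cytochrome c drives Apaf1 to activate Casp9. Death receptors such as Fas act through Casp8, and where Casp8 is inactive Ripk1 and Ripk3 can engage Mlkl in necroptosis. The mouse embryo starts with RNA stored by the oocyte and begins large-scale transcription of its own genome in the 2-cell stage.

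The table gives 1 value per gene and group, the authors' value for the group, as log2(FPKM + 1), where FPKM is a fragment count scaled by transcript length and library total. No value below therefore has an SD, a replicate check or a p-value, and sequencing depth is unknown. Levels are given in FPKM, and a difference is the change in log2(FPKM + 1), counted as higher or lower from 1, which is 2-fold on that scale. In bulk RNA, fewer cells with a transcript and less transcript per cell cannot be told apart. Oocyte and early embryo markers were at or above 1 FPKM for 12 of 12 genes in every column, with sums of 6997, 7529.8, 2649 and 2016 FPKM from 1-cell to TSA-treated late 2-cell. Across the first cleavage the sum was higher through Dppa3, at 3321 and 4830 FPKM. The other 11 genes lay lower, 3 of them by at least 2-fold, and the list's median difference was -0.52. Among all genes kept, 53.1% lay lower, and 5.53% by at least 2-fold. Summed cumulus and granulosa markers lay between 13.9 and 21.8 FPKM over the 4 columns (16 genes, of which 3 to 5 reached 1 FPKM). Single genes of that list differed in both directions between the 2-cell stages: of 7 kept, Amhr2, Fshr, Fst and Hsd17b1 were at least 2-fold higher, none above 5.17 FPKM at the late stage, and Cyp19a1 was lower, at 6.26 and 0.498 FPKM. Summed blood markers were 0.887, 5.32, 85.6 and 126 FPKM (10 genes, of which 0 to 5 reached 1 FPKM), and all 5 kept were at least 2-fold higher in late than in early 2-cell embryos. Of all genes with at least 1 FPKM in any untreated column, 47.1% were higher and 10.8% lower in this comparison. Except for Hba-a2, the higher genes of both lists reached 1 FPKM only in the late one of the untreated columns, so their being counted depended on it. Hba-a1 and Hba-a2 stood at 32.9 and 33.0 FPKM in late 2-cell embryos without TSA, and Cd52, Cd74 and Lyz2 at 11.04, 4.93 and 3.46 FPKM. With TSA these 5 blood markers differed in both directions, so their higher sum does not describe each gene. Lyz2 was at least 2-fold higher, at 14.4 FPKM, and Cd52 and Cd74 were lower, at 4.47 and 1.01 FPKM. Hba-a1 and Hba-a2 were higher by less than 2-fold, with differences of 0.59 and 0.75. Past 2-fold in either direction were 60% of these 5, against 6.59% of all genes. Hbb-bs and Hbb-bt were listed at 0 in every column, and Ptprc and Csf1r at 0 in both late 2-cell columns. Their part in the results was not tested.

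Across the first cleavage, from 1-cell to early 2-cell, few of these genes differed by 2-fold, and those that did were higher. Cdkn1a, Mcl1, Diablo and Gadd45g were higher and 0 members were lower, out of 37 members with at least 1 FPKM in any untreated column. Over all 13012 genes kept by this filter, 2.89% were higher and 5.53% lower, 8.42% in either direction. Of all genes past 2-fold 34.3% were higher, against 44.4% after median-ratio scaling, which divides each column by its median ratio to the genes' geometric means, and 47.7% after quantile normalization, which gives all columns the same distribution. The members' median difference was 0.18, against -0.03 for all genes, and 25 of 37 members lay above 0 against 45.4% of all genes. Among the p53 targets 10 of 12 lay above 0, with a median of 0.55. These 10 include Sesn2 and Perp, which were under 1 FPKM in both columns and kept only through the late 2-cell column. The 26 kept p53 targets outside the members had a median of 0.05, with 14 above 0. In that list 0 were at least 2-fold higher and 2 lower. The 3 members left out by the filter were Phlda3, Bak1 and Fas.

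From early to late 2-cell, most members stood higher, as did the table as a whole. This comparison shares the early 2-cell column with that of the first cleavage. Of the 37 members, 22 were at least 2-fold higher and 2, Bcl2l10 and Casp8, were lower. Of all genes, 47.1% were higher and 10.8% lower, 57.8% in either direction, so the members' share of 59.5% higher is read against a background that is itself large. Their median was 1.30 against 0.89 for all genes. By role, the higher members were 8 of 12 kept p53 targets (median 1.47), 6 of 10 in the Bcl2 family (1.46), 3 of 5 caspases with Apaf1 (1.19), 2 of 3 inhibitors of apoptosis with Diablo (1.30), 2 of 4 death receptor and necroptosis genes (0.93) and 1 of 3 among p53 and its inhibitors (0.37). Of the 37 members, 8 reached 1 FPKM in late 2-cell embryos only among the untreated columns (Sesn2, Perp, Bcl2, Bbc3, Pmaip1, Casp9, Ripk3 and Mlkl), so that their being counted at all depended on that column. Scaling the columns by median ratios brought the median of all genes to 0.02, a shift of -0.87, and gave 12 members higher and 6 lower, against 29.5% and 25.1% of all genes. Higher genes then made up 54.1% of all genes past 2-fold, and 49.0% after quantile normalization, against 81.4% without scaling. The 12 members past 2-fold in the same direction under each of 6 other settings were Aen, Bcl2l11, Bid, Casp2, Casp6, Cdkn1a, Gadd45b, Gadd45g, Ripk3 and Sesn1 on the high side and Bcl2l10 and Casp8 on the low side. Those settings were other values added before the log, other filters, and both scalings. The share of all genes past 2-fold under all of them was not computed, so the count of 12 has no background beside it. The filters leave a gene's difference unchanged, so only the added values and the scalings could move a gene across 2-fold.

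With TSA, the late 2-cell levels of most members lay near those without it. Pmaip1 was higher, and Bcl2, Mdm4 and Rrm2b were lower, out of 37 members with at least 1 FPKM in either column. Over all 12756 genes kept, 2.51% were higher and 4.08% lower, 6.59% in either direction. Of all genes past 2-fold 38.1% were higher, against 61.2% after median-ratio scaling, which moved the all-gene median by 0.14, and 52.7% after quantile normalization. The members' median difference was -0.0042, against -0.08 for all genes, and 18 members lay above 0 and 19 below. Bak1, Casp8 and Fas were under 1 FPKM in both columns. This comparison and that of the 2-cell stages share the untreated late 2-cell column.

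**Figure D1:**
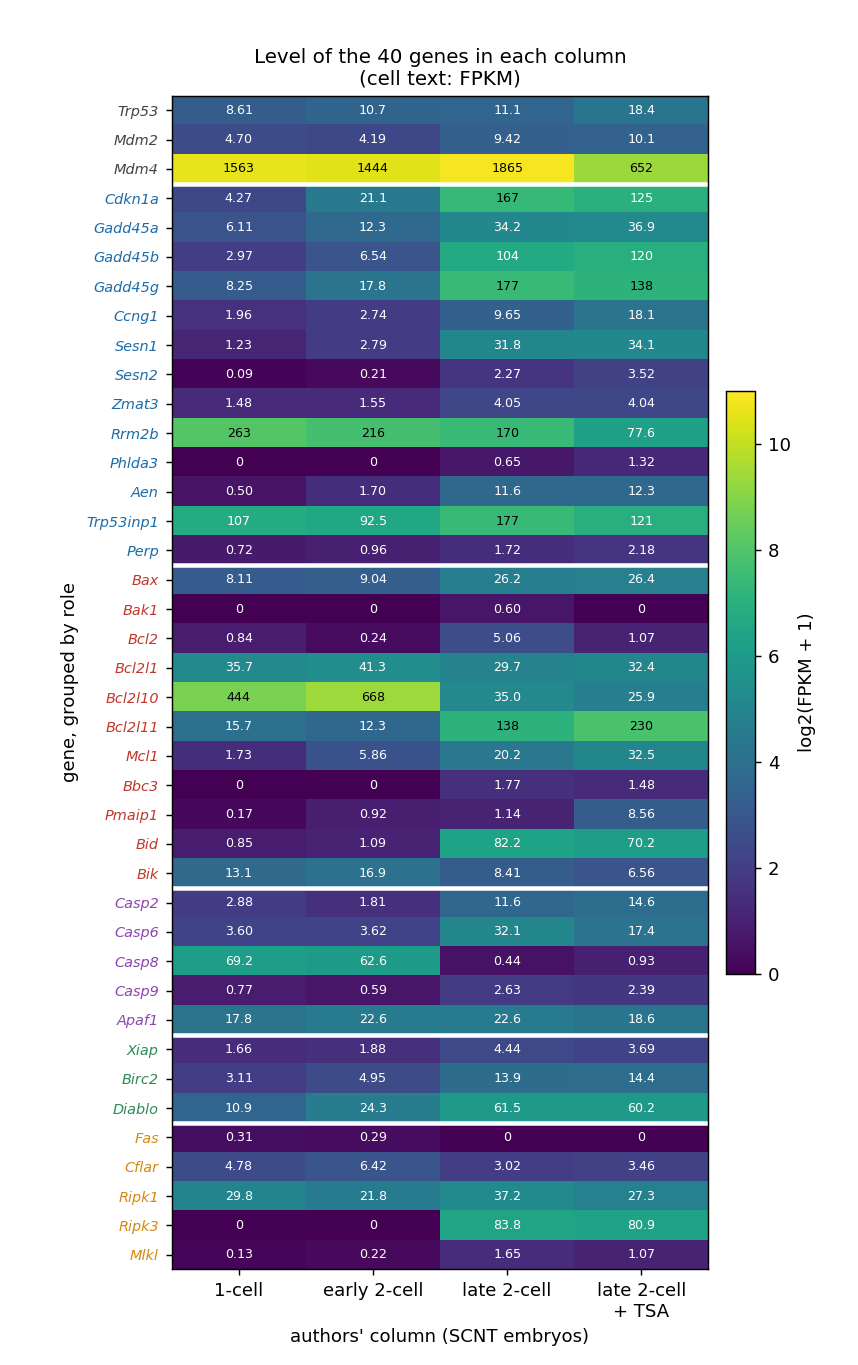
Level of each of the 40 genes (rows, grouped by role, with white lines between groups) in the 4 columns of the table, with colour for log2(FPKM + 1) and FPKM printed in each cell. Mdm4 is the brightest row in every column, Bcl2l10 and Casp8 are brighter in 1-cell and early 2-cell embryos (444 and 668 FPKM, 69.2 and 62.6 FPKM), and Ripk3 and Bid in both late 2-cell columns.

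**Figure D2:**
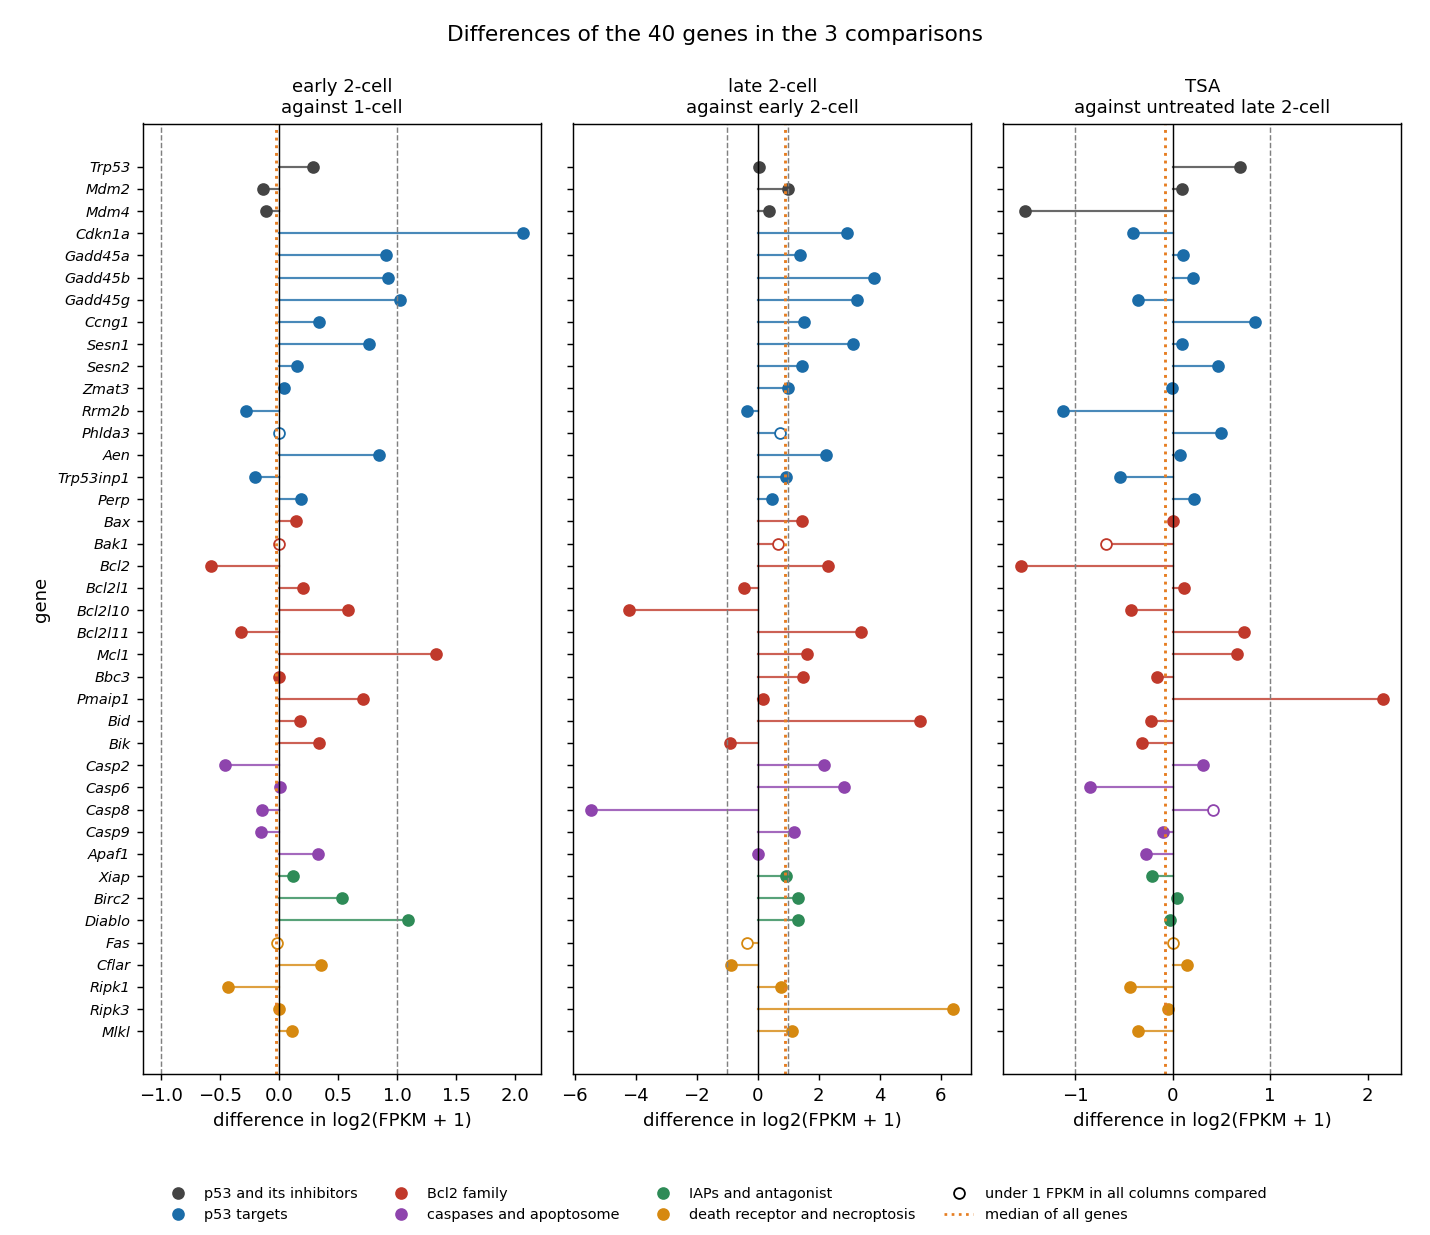
Difference in log2(FPKM + 1) of each gene in the 3 comparisons, each panel with its own x scale. Dashed lines mark a difference of 1 in either direction, and the dotted line the median of all genes. Open circles are genes under 1 FPKM in all 3 untreated columns for the stage panels, or in both late columns for TSA. Filled circles in the left panel include 8 members under 1 FPKM in both columns compared there. In the middle panel the dotted line stands at 0.89, to the right of 0, and only Bcl2l10 and Casp8 lie beyond -1.

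**Figure D3:**
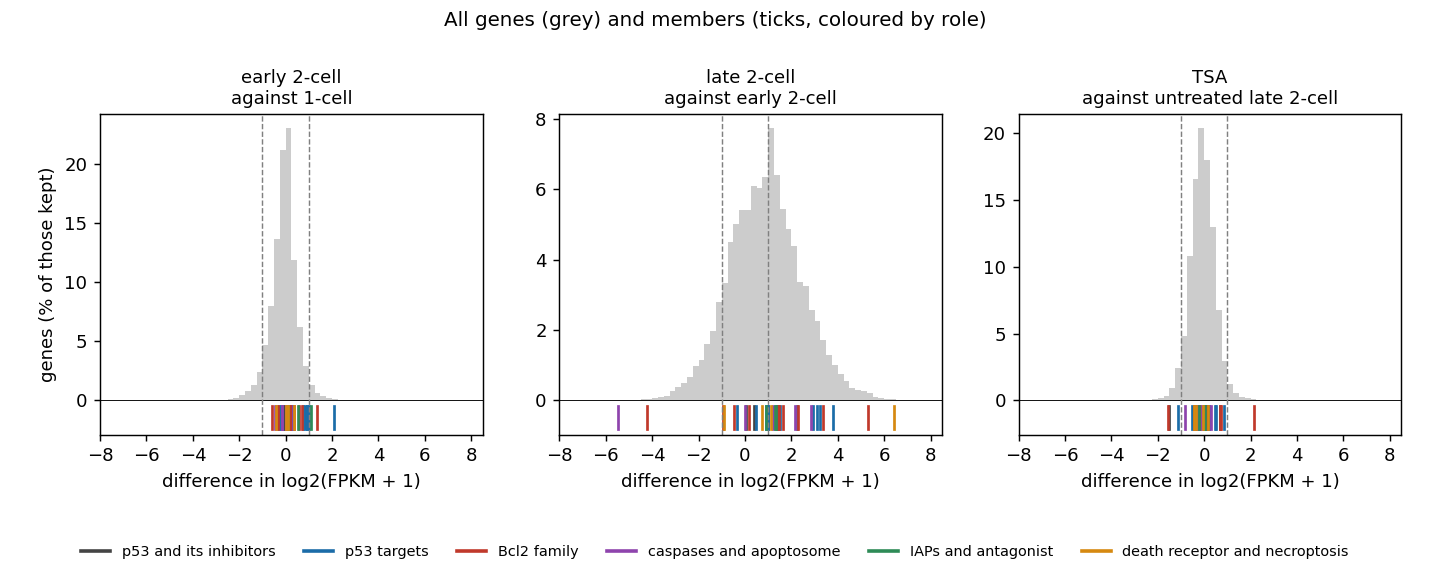
Distribution of the differences of all kept genes (grey, percent of genes per bin of 0.25) with the members as ticks coloured by role, and dashed lines at a difference of 1 in either direction. The middle distribution is wide and centred to the right of 0, and the ticks of Ripk3 (6.41), Bid (5.32), Bcl2l10 (-4.22) and Casp8 (-5.46) lie toward its ends.

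Trp53 itself was listed at 8.61 FPKM in 1-cell, 10.7 in early 2-cell and 11.1 in late 2-cell embryos, and at 18.4 FPKM with TSA. The 3 untreated values lay close together, and the value with TSA was the highest, a difference of 0.69. Relative to other genes Trp53 stood lower at the late stage, because its difference of 0.04 between the 2-cell stages lay at -0.85 from the all-gene median, and was -0.88 after median-ratio scaling and -1.01 after quantile normalization. Mdm2, the ubiquitin ligase for p53, was at 4.70, 4.19 and 9.42 FPKM over the untreated stages and at 10.1 FPKM with TSA. Its late value was 2.25 times the early 2-cell value, but the difference of 1.01 became 0.14 after median-ratio scaling and -0.09 after quantile normalization.

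Mdm4, the relative of Mdm2 that blocks p53's activating domain, was by far the most abundant of the 40. It was listed at 1563, 1444 and 1865 FPKM in 1-cell, early and late 2-cell embryos and at 652 FPKM with TSA. Among all 24421 genes it ranked 35th, 41st, 17th and 71st in these columns, and it made up 59.2%, 52.7%, 54.9% and 31.7% of the members' summed FPKM. Between the 2-cell stages its difference of 0.37 had the opposite sign, -0.64, after median-ratio scaling. Its level with TSA was the lowest of the 4, 2.86 times below the untreated late value, a difference of -1.52 that ran from -1.52 to -1.36 over the other settings. Mdm4 lies on chromosome 1 from 132986105 to 133030587 (RefSeq, GRCm38.p6, the assembly behind mm10), where 2 other RefSeq genes absent from the table, a pseudogene and a long noncoding RNA, overlap it. Without Mdm4 the other 39 members together held 1077, 1297, 1534 and 1403 FPKM, so that with TSA their sum stayed within the range of the stages.

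In the list of p53 targets, Cdkn1a and the Gadd45 stress sensors were lowest in 1-cell embryos and higher at each later untreated stage. Genes entered this list by name, and whether p53 acts on each of them in these embryos was not tested. Its counts and medians include Gadd45b and Gadd45g. Cdkn1a encodes p21, which blocks cyclin-dependent kinases. It was at 4.27, 21.1 and 167 FPKM over the 3 untreated stages and at 125 FPKM with TSA, so both late columns were far above the earlier ones. The gene lies on chromosome 17 from 29090979 to 29100722. Its differences were 2.07 across the first cleavage and 2.92 between the 2-cell stages, and past 1 under each other setting tried. Gadd45g, which binds stress kinases and cell cycle proteins, was at 8.25, 17.8, 177 and 138 FPKM in the same order. Gadd45b, of the same family, was at 2.97, 6.54, 104 and 119.7 FPKM, a 15.9-fold step between the 2-cell stages. Gadd45a, the family member best known as a p53 target, took smaller steps, at 6.11, 12.4, 34.2 and 36.9 FPKM, and its difference of 1.40 between the 2-cell stages was 0.44 after median-ratio scaling.

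The promoters of Cdkn1a, Gadd45b and Gadd45g are printed because these 3 had the highest late 2-cell levels among the p53 targets at least 2-fold above the early 2-cell stage, and that of Ripk3 because it had the highest difference of any member. Each is a RefSeq window (GRCm38.p6) from 250 bases before the annotated start to 50 after it, on the gene's strand, 5′ to 3′. Capitals mark the p53 decamer in Cdkn1a, the 10-base unit that p53 binds in pairs, and TATAAA in the Gadd45 genes. The windows are chr17:29090729-29091028 (+) for the upstream of the 2 Cdkn1a starts, chr10:80929841-80930140 (+) for Gadd45b, chr13:51846425-51846724 (+) for Gadd45g and chr14:55788808-55789107 (-) for Ripk3.
Cdkn1a: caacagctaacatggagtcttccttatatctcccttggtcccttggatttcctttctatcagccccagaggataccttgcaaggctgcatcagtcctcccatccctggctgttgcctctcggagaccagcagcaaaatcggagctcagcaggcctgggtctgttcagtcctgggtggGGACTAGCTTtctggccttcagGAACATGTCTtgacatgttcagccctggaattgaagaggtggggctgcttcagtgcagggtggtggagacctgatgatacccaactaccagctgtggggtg
Gadd45b: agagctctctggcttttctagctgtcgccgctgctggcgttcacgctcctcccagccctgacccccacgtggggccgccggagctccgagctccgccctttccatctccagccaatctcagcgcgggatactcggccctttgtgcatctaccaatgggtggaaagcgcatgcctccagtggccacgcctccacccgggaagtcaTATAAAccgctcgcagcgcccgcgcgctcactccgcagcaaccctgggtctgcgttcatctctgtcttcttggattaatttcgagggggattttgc
Gadd45g: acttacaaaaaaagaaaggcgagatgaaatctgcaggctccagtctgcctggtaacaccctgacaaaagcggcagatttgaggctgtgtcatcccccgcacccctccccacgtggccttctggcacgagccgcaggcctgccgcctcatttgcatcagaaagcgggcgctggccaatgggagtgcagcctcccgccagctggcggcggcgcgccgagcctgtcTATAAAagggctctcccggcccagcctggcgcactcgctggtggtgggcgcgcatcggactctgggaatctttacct
Ripk3: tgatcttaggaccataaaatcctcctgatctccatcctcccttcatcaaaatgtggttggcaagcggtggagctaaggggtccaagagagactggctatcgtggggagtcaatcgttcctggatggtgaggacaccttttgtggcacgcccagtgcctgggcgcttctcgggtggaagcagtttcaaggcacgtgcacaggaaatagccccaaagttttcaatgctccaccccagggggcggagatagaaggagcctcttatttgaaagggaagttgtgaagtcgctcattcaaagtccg

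In Cdkn1a the 2 decamers begin 73 and 51 bases before the start, and the window of the downstream start holds 0. The 2 do not adjoin, so the capitals do not mark a pair. The one nearer the start is followed directly by tgacatgttc, which misses the pattern at its first base and is left in lower case. TATAAA begins 46 bases before the Gadd45b start and 27 bases before the Gadd45g start. Windows were found for 33 of the 40 genes, and the p53 decamer, whose pattern reads the same on both strands, was in those of 9: Aen, Bax, Birc2, Ccng1, Cdkn1a, Gadd45a, Mdm2, Sesn1 and Trp53. That is 27.3% of the genes, against 9.55% of 27025 genes with such windows in the table, and 5 of the 9 p53 targets with a window are among them. Between the 2-cell stages 8 of these 9 genes were at least 2-fold higher, with a median of 1.44, and of the 21 kept genes without the decamer 14 were, with a median also of 1.44, beside 47.1% of all genes. Those 14 include Sesn2, Bcl2, Bbc3, Casp9, Ripk3 and Mlkl, kept only through the late 2-cell column in which they were higher. None of the 9 was kept in that way, so the 2 sets are unlike and their counts and medians cannot be compared. Of the 8 with the decamer, Aen, Cdkn1a and Sesn1 were past 2-fold under all 6 other settings and the other 5 were not. Among the 14 without it, Bcl2l11, Bid, Casp2, Casp6, Gadd45b, Gadd45g and Ripk3 were, and the rest were not. The 7 genes with no window here, Bcl2l10, Bik, Perp, Pmaip1, Rrm2b, Trp53inp1 and Zmat3, included 0 higher and 1 lower, with a median of 0.16. TATAAA, which overlaps no decamer here, was on the gene's strand in windows of 3 of 33 members (Cflar is the third) against 9.77% of all genes, and on either strand in 5 against 15.7%. A match describes the letters of these windows and does not show a bound site.

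Sesn1, Aen and Ccng1 had the same order of untreated levels, at lower late 2-cell levels than these 4 genes. Sesn1, which curbs mTORC1 signalling, was at 1.23, 2.79 and 31.8 FPKM over the untreated stages and at 34.1 FPKM with TSA. Aen, an exonuclease of apoptotic DNA, was at 0.498, 1.70, 11.6 and 12.3 FPKM. Both stood well above the all-gene median between the 2-cell stages, by 2.23 and 1.34. Ccng1, cyclin G1, was at 1.96, 2.74 and 9.65 FPKM over the stages and at 18.1 FPKM with TSA, 1.87 times the untreated late level and a difference of 0.84. Sesn2, Zmat3, Perp and Phlda3 stayed under 5 FPKM in every column, and Phlda3 was listed at 0 in both earlier columns.

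The remaining 2 p53 targets, Rrm2b and Trp53inp1, were abundant from the 1-cell stage. Rrm2b, the p53-inducible subunit of ribonucleotide reductase that supplies deoxynucleotides, was at 263, 216 and 170 FPKM over the untreated stages and at 77.6 FPKM with TSA. Its level was lower in each later column, and the difference with TSA was -1.12, or -0.97 after median-ratio scaling. Trp53inp1, a cofactor in stress responses and autophagy, was at 107, 92.5 and 177 FPKM and at 121 FPKM with TSA. Its difference of 0.93 between the 2-cell stages was close to the all-gene median.

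In the Bcl2 family the late 2-cell columns differed from the earlier ones in which member was most abundant. Bcl2l10, known from oocytes, is grouped here as anti-apoptotic by name, and its role in these embryos was not tested. It was at 444 and 668 FPKM in 1-cell and early 2-cell embryos. In late 2-cell embryos it was at 35.0 FPKM without and 25.9 FPKM with TSA. The early 2-cell level was 19.1 times the late one. Of the summed FPKM of the 11 family genes among the members, Bcl2l10 held 85.4%, 88.4%, 10.02% and 5.94% over the 4 columns. It lies on chromosome 9 from 75347758 to 75351640, and no other RefSeq gene overlaps it. Bid, a BH3-only protein that Casp8 cleaves, was at 0.851 and 1.09 FPKM and then at 82.2 and 70.2 FPKM. Bcl2l11, which encodes the BH3-only protein Bim, was at 15.7 and 12.3 FPKM and then at 138 FPKM without and 230.0 FPKM with TSA. The BH3-only members together held 5.73% and 4.14% of that sum in the earlier columns, and 66.5% and 72.8% in the late columns. Related genes outside the members are not in these shares. Among them, Bnip3 was at 26.2, 34.3, 188.5 and 188.3 FPKM and Bnip3l at 115.5, 116.3, 135.7 and 136.8 FPKM. Bcl2l11 overlaps Acoxl, at 4.17, 2.56, 1.70 and 1.57 FPKM, and Bid a pseudogene that the table does not list, so some reads could be shared. Shares of RNA say nothing of protein amounts, which were not measured.

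**Figure D4:**
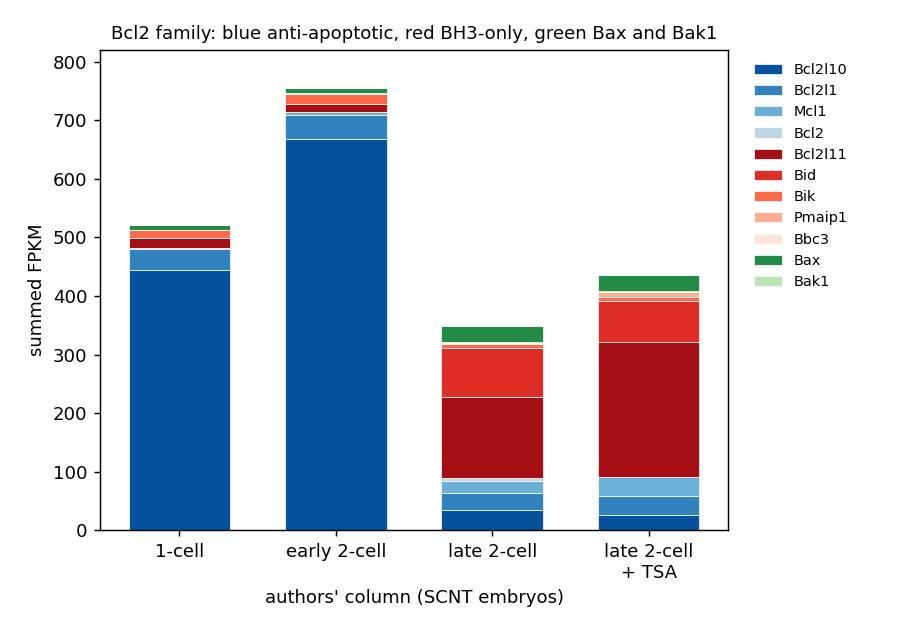
Summed FPKM of the 11 Bcl2 family genes among the 40 members in each of the 4 columns, stacked by gene. Members grouped as anti-apoptotic are in blue, BH3-only members in red and Bax and Bak1 in green. Blue (Bcl2l10) fills most of the 1-cell and early 2-cell bars, and red (Bcl2l11 and Bid) most of both late 2-cell bars.

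The other members grouped as anti-apoptotic were less abundant than Bcl2l10 in the 1-cell and early 2-cell columns. Mcl1, a short-lived survival factor, was at 1.73, 5.86 and 20.2 FPKM over the untreated stages and at 32.5 FPKM with TSA, higher in each later column. Bcl2l1, which encodes Bcl-xL, was at 35.7, 41.3, 29.7 and 32.4 FPKM, and overlaps Cox4i2, at 1.58, 1.81, 23.7 and 16.8 FPKM. Its difference between the 2-cell stages had the sign of that of Bcl2l10, -0.46, and was -1.44 after median-ratio scaling and -1.19 after quantile normalization. Bcl2 itself was at 0.844 and 0.237 FPKM, then at 5.06 FPKM in untreated and 1.07 FPKM in TSA-treated late 2-cell embryos. Only the untreated late value was above 2 FPKM, and the difference with TSA was -1.55, or -0.73 with 5 FPKM in place of 1 added before the log. Without Bcl2l10, the anti-apoptotic members summed to 38.2, 47.4, 55.0 and 66.0 FPKM.

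Of the BH3-only genes induced by p53, Pmaip1 had the largest difference of any member with TSA. Pmaip1, which encodes Noxa, a partner of Mcl1, was at 0.172, 0.916 and 1.14 FPKM over the untreated stages and at 8.56 FPKM with TSA. The value with TSA was 7.51 times the untreated late value and lay above all 3 untreated ones, and the difference of 2.16 ran from 1.14 to 2.80 over the other settings. Bbc3, which encodes Puma, was listed at 0 in both earlier columns and at 1.77 and 1.48 FPKM in late 2-cell embryos without and with TSA. Bik, a BH3-only protein of the endoplasmic reticulum, was at 13.1, 16.9, 8.41 and 6.56 FPKM, lower in both late columns, and its difference of -0.93 between the 2-cell stages was -1.84 after median-ratio scaling. Bax, which forms pores in the mitochondrial membrane, was at 8.11 and 9.04 FPKM and then at 26.2 and 26.4 FPKM. Bak1, its partner in this role, did not exceed 0.600 FPKM.

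Among the caspases, the initiator of the death receptor pathway and the others differed in opposite directions between the 2-cell stages. Casp8 was at 69.2 and 62.6 FPKM in 1-cell and early 2-cell embryos and at 0.443 and 0.929 FPKM in late 2-cell embryos without and with TSA. The early 2-cell level was 141 times the late one, the lowest difference of any member at -5.46. Casp8 lies on chromosome 1 from 58795233 to 58847503, and no other RefSeq gene overlaps it. Casp6, an executioner caspase, was at 3.60 and 3.62 FPKM, then at 32.1 FPKM without and 17.4 FPKM with TSA, a difference of -0.85. Casp2, an initiator linked to p53 and to centrosome number, was at 2.88, 1.81, 11.6 and 14.6 FPKM. Casp9, the caspase of the apoptosome, stayed under 3 FPKM in every column and overlaps Cela2a, at 1.46, 4.63, 14.2 and 4.06 FPKM. Its scaffold Apaf1 varied little, at 17.8, 22.6, 22.6 and 18.6 FPKM, which put it below the all-gene median between the 2-cell stages, by -0.89.

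Inhibitor of apoptosis proteins bind caspases or their upstream complexes, and Diablo, released from mitochondria, counters them. Diablo was at 10.9, 24.3, 61.5 and 60.2 FPKM, higher at each untreated stage and level between the late columns. Birc2, which encodes cIAP1, was at 3.11, 4.95, 13.9 and 14.4 FPKM, and Xiap was at 1.66, 1.88, 4.44 and 3.69 FPKM. Between the 2-cell stages the differences of Diablo and Birc2, 1.30 and 1.33, were 0.32 and 0.43 after median-ratio scaling, and that of Xiap turned from 0.92 to -0.22 after quantile normalization.

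Of the necroptosis genes, Ripk3 had the highest difference of any member. Ripk3, the kinase that phosphorylates Mlkl, was listed at 0 in 1-cell and early 2-cell embryos and at 83.8 and 80.9 FPKM in late 2-cell embryos without and with TSA, so the early and late columns were far apart and the late columns close together. A value of 0 can be a failed estimate, and no fold is given. The difference of 6.41 ran from 4.15 to 9.71 over the other settings. Ripk3 lies on chromosome 14 from 55784995 to 55788857 and is overlapped by Gm32092, a long noncoding RNA that the table does not list. Mlkl, the membrane-disrupting effector, was low in every column, at 0.126, 0.216, 1.65 and 1.07 FPKM. Ripk1, which acts in both survival and death signalling, was at 29.8, 21.8, 37.2 and 27.3 FPKM, and its difference of 0.75 between the 2-cell stages was -0.23 after median-ratio scaling.

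Of the members at the receptor end of the pathway, Fas was under 1 FPKM in every column and Cflar was not. Fas, a death receptor and p53 target, was at 0.309 and 0.291 FPKM and listed at 0 in both late columns. Cflar, which encodes the Casp8 inhibitor c-FLIP, was at 4.78, 6.42, 3.02 and 3.46 FPKM, its early 2-cell value being 2.13 times the late one. The difference of -0.89 was -1.68 after median-ratio scaling and -1.98 after quantile normalization.

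Another 114 genes of the same pathways, outside the 40, were found in the table. Across the first cleavage, 2 of the 83 kept were at least 2-fold higher and 4 lower, against 2.89% and 5.53% of all genes, and their median was 0.01. Atm, the kinase that signals DNA breaks, was higher, at 10.9 and 22.9 FPKM, with a difference of 1.00 that lay right at the limit. The other settings were not counted for these 114 genes. Gtse1, which restrains p53 in G2, was lower, at 33.3 and 9.54 FPKM. Between the 2-cell stages 46 of 83 (55.4%) were higher and 6 lower, against 47.1% and 10.8% of all genes, with a median of 1.08. Steap3, a metalloreductase induced by p53, was listed at 0 and 28.7 FPKM, and Bcl2l14 was at 0.227 and 19.4 FPKM. Birc3, which encodes cIAP2, was lower, at 124 and 11.4 FPKM, as were Trp63, of the p53 family, at 5.61 and 1.06 FPKM, and Birc6 at 194 and 64.2 FPKM. With TSA, 0 of 83 were at least 2-fold higher or lower, against 6.59% of all genes, with a median difference of -0.02.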

How the data were processed

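The authors deposited 1 table of log2(FPKM + 1) values, per the file headers. The submitters' processing notes list, with no role, Cufflinks, deepTools 2.5.7, Bowtie2 2.3.4.3, StringTie 1.3.4, HISAT2 2.1.0, SAMtools 1.7 and the build mm10. The annotation, the strand setting and how libraries were combined: not given in the sources used here. Of 6 columns of values, 4 were matched to groups. The other 2 were left out because no labelled RNA library corresponds to them. The 1-cell column is named by 13 h and was matched through the collection time in the labels' protocol, which is an inference.

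Values were turned back to FPKM with Python 3.11.15 and pandas 2.3.3, and differences were taken with a pseudocount of 1 FPKM among genes with at least 1 FPKM in a compared column (any of the 3 untreated columns for stages). With 1 value per group no test could be fitted. The counting was checked on a copy of the untreated late 2-cell values with known changes planted in abundant genes and no noise added. Such a check covers the code only and says nothing of low or unreplicated values. Alternatives were pseudocounts of 0.1 and 5 FPKM, no filter, a filter of 5 FPKM, median-ratio scaling and quantile normalization. An FPKM value shifts with the abundance of all other genes in the column, and genes near 1 FPKM have their differences understated.

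The members and gene lists were chosen with earlier results of these data known. Members were named with all values where a difference reached 1 and the higher column held 5 FPKM or more, where they led their role group, or where they completed a role. At most 3 other pathway genes per comparison and direction were named by the same limits, and 1 gene that met them is not reported here. Of 120 listed symbols, 114 were in the table. All 40 members had a RefSeq position, and 16 overlap another RefSeq gene. Counting that ignores strand cannot separate such genes.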

Additional observations from a re-analysis of the deposited data

How the results depend on the processing

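No paired analysis was possible because each group has 1 column and the columns carry no replicate numbers, and for the same reason no library could be left out. Across the first cleavage, the count of members at least 2-fold higher was 4 as reported, 9 with a pseudocount of 0.1 FPKM, 1 with a pseudocount of 5 FPKM and 7 after median-ratio scaling, and the count lower was 0 as reported and 1 with a pseudocount of 0.1 FPKM. The share of all genes higher was 2.89% as reported, 8.92% and 0.69% with these pseudocounts, and 4.43% after median-ratio scaling. The share lower was 5.53% as reported and 11.3% with a pseudocount of 0.1 FPKM. Cdkn1a was past 2-fold under all 6 alternatives, and Diablo, Gadd45g and Mcl1 under 5 each. In such counts per gene the filters could change nothing, because they leave a gene's own difference as it is. Only the pseudocounts and scalings could. Between the 2-cell stages, the 22 members higher became 14 with a pseudocount of 5 FPKM and 12 after median-ratio scaling or quantile normalization, and the 2 lower became 6 after either. The share of all genes higher went from 47.1% to 27.3%, 29.5% and 25.9% under these 3 settings in turn. The share lower went from 10.8% to 25.1% after median-ratio scaling and 26.9% after quantile normalization. Of the 24 counted members 12 were past 2-fold under all 6 alternatives, a count for which the share of all genes was not computed. The difference of Mdm2 turned from 1.01 to -0.092 after quantile normalization. With TSA, the counts of 1 higher and 3 lower were within 1.5 times under each alternative, Mdm4 and Pmaip1 were past 2-fold under all 6, and the members' median of -0.0042 was 0.11 after median-ratio scaling and 0.040 after quantile normalization.

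Over all genes, the first cleavage gave 376 higher and 720 lower, against 563 and 706 after median-ratio scaling and 572 and 628 after quantile normalization. The 2-cell stages gave 6128 and 1399, against 3758 and 3188 or 3419 and 3556, and TSA gave 320 and 520, against 367 and 233 or 356 and 319. The cause of these changes was not tested. Which scaling is nearer to RNA per embryo cannot be told from the table. Without replicates or counts, the spread of any value is unknown.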
